A study of Homo sapiens with 9 samples.

Results

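The G2 and mitosis genes are 48 named genes whose products prepare a cell for division and carry it out, read here from a deposited table of 29972 genes. All 48 were found by symbol, and all 48 were among the 13494 genes with a mean of at least 0.5 scaled TPM that were tested. Levels are given as scaled TPM, the authors' TPM (a level per transcript length) divided by a size factor for each library. The cells were H2030, an established line of human non-small cell lung cancer, grown in 6-well plates and transfected by lipofection with 20 nmol/L of siRNA. The siMENA11a group received a mix of 3 siRNAs, each matching 21 nucleotides of exon 11a of ENAH, which is found in the epithelial isoform hMENA11a. The siMENA group received a SMARTpool aimed at ENAH as a whole, the gene of the actin regulator hMENA. The control group received a non-targeting pool from another reagent line of the same supplier. Each group had 3 libraries of ribosome-depleted total RNA, all 9 from this 1 line. The labels do not say whether libraries of 1 group derive from separate cultures. The p-values therefore measure spread among libraries, and that spread may be technical only.

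A cell enters mitosis when CDK1 bound to A- and B-type cyclins is switched on by CDC25 phosphatases, with PLK1 and the Aurora kinases acting beside it. Kinetochores tie chromosomes to the spindle, and the spindle checkpoint holds the anaphase-promoting complex inactive until every chromosome is attached. CDC20 then activates this ubiquitin ligase, separase cuts the cohesin rings, and the central spindle guides cytokinesis. Most of these genes are transcribed in G2 under MYBL2, the MuvB complex and FOXM1, which act through a promoter element called the CHR, and the DREAM complex represses them in resting cells. In tumours their transcripts are widely used as proliferation markers.

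The promoters of these genes were searched for short sequence words, among them those of the CHR. Since most of these genes are known to be transcribed through that element, a high share was foreseeable and is no independent result. RefSeq promoter windows of 250 bases before to 50 bases after the transcription start (GRCh38.p14) were found for 40 of the 48 genes. The words were searched in the 33 genes with 1 window, while 7 genes had several and 8 had none in that set. The CCAAT box, the site of NF-Y, was searched as CCAAT and as ATTGG for the other strand. The CHR words searched were TTTGAA with its reverse complement TTCAAA, and also TTTAAA, which reads the same on both strands. A CHR word was present in 30 of the 33 windows (90.9%), against 24.0% of all 35114 promoters and 14.3% of the 6722 tested genes with 1 window. A CCAAT box was present in 25 of the 33 (75.8%), against 34.6% of all promoters and 37.9% of those tested genes. Both were present in 23 of the 33 (69.7%), against 9.27% and 6.26%, and the words overlapped each other in 1 of the 33. The E2F words searched, TTCCCGC and also TTGGCGC on either strand, were present in 5 of the 33 (15.2%), against 9.23% of all promoters and 15.3% of those tested genes. Base composition differed between the sets, with 61.1% G and C in the 33 windows, 57.5% over all promoters and 65.5% over those tested genes. CKAP2 was the 1 of the 33 with none of these words. A match is a run of letters and says nothing about binding in these cells.

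**Figure D1:**
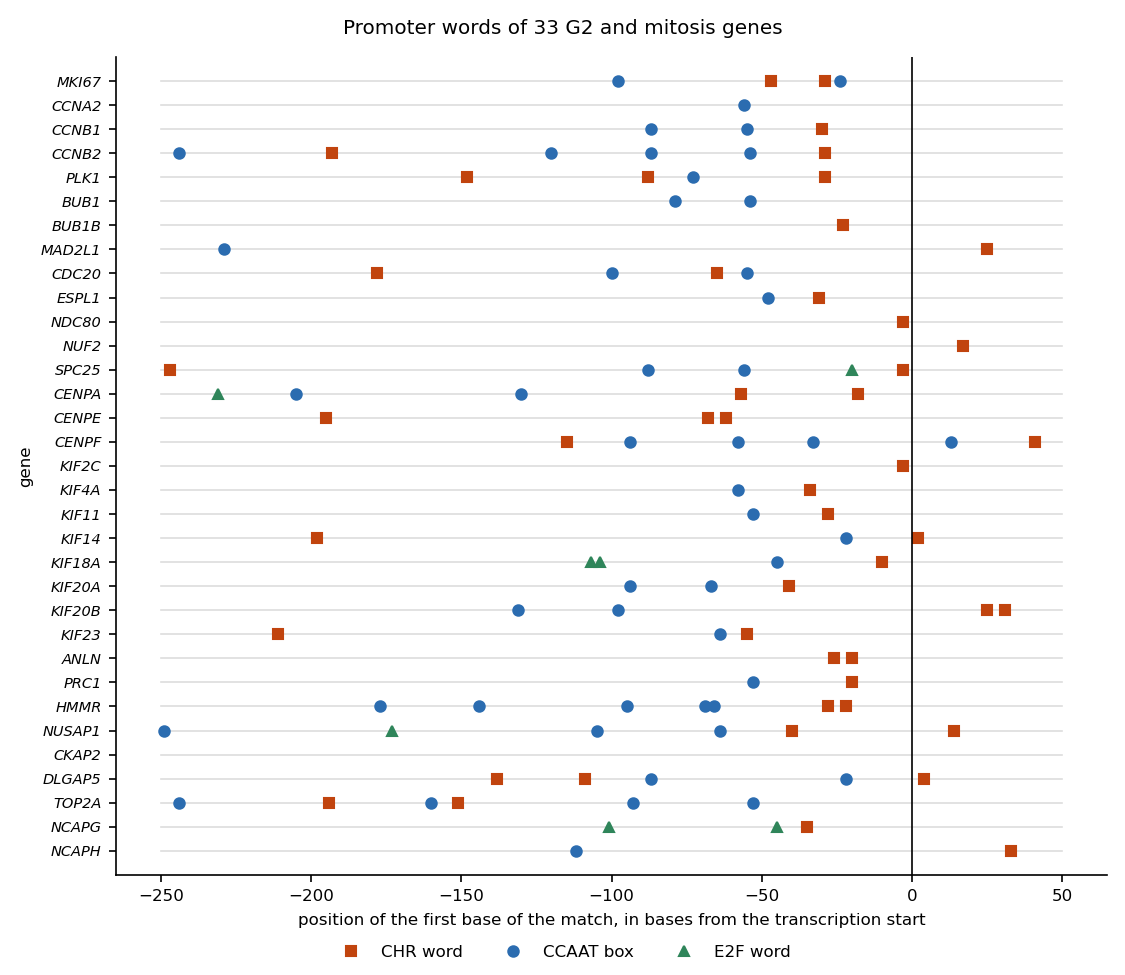
Positions of promoter words in the 33 G2 and mitosis genes with 1 RefSeq window. Each line is a gene, the x axis is the position of the first base of the match in bases from the transcription start, squares are CHR words, circles are CCAAT boxes and triangles are E2F words. CHR words cluster close to the start (49 matches, median position -30), and CCAAT boxes lie further upstream (49 matches, median position -79).

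Promoters of 7 genes are printed because the results turn on these genes: the CDC20, PLK1 and KIF20A transcripts had some of the largest falls with the exon 11a siRNAs, the CCNB1 and CCNB2 transcripts were not called different with the pool against all isoforms, and the TOP2A and ANLN transcripts fell further with that pool in the scaled values. Each line gives the 150 bases before the start, 5′ to 3′ on the strand of the gene, in GRCh38.p14. CDC20 is chr1:43358831-43358980 on the plus strand, PLK1 is chr16:23678739-23678888 on the plus strand, KIF20A is chr5:138178962-138179111 on the plus strand and CCNB1 is chr5:69167000-69167149 on the plus strand. CCNB2 is chr15:59104996-59105145 on the plus strand, TOP2A is chr17:40417897-40418046 on the minus strand and ANLN is chr7:36389712-36389861 on the plus strand. Capitals mark whole CCAAT boxes and CHR words inside these 150 bases.
CDC20: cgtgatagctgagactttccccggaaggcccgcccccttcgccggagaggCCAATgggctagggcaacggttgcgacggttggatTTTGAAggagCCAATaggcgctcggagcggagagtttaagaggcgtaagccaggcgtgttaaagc
PLK1: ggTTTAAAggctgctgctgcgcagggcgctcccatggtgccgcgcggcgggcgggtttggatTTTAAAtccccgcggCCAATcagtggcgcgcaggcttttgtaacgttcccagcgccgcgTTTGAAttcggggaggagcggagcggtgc
KIF20A: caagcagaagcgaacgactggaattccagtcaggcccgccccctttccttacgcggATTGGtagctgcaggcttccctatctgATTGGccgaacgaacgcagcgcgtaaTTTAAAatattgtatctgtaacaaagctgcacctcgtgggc
CCNB1: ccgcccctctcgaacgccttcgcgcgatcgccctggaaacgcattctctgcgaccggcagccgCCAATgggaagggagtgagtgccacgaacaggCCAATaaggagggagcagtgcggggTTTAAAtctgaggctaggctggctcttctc
CCNB2: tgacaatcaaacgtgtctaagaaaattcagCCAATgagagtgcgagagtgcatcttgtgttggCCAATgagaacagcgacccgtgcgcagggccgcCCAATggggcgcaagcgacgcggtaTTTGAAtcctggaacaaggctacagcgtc
TOP2A: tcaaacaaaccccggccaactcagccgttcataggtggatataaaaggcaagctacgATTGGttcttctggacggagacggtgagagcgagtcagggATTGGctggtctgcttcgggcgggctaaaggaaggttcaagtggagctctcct
ANLN: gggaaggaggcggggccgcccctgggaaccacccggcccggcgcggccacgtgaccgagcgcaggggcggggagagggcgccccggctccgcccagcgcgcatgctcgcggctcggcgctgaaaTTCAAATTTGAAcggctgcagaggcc
The CCNB1 and CCNB2 lines show repeated CCAAT boxes followed by a CHR word near the start, and the CDC20 and KIF20A lines hold the same kinds of word. The ANLN line holds CHR words that abut each other and no CCAAT box. In the TOP2A line the capitals are CCAAT boxes. Its full window holds 2 CHR words, 1 with its first base at position -151, which straddles the upstream edge of the line and is not in capitals, and 1 further upstream at -194.

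The targeted gene was measured first. ENAH had 46.4, 47.2 and 48.4 scaled TPM in siMENA11a, 6.85, 7.26 and 7.45 in siMENA and 43.4, 43.01 and 44.5 in control. It was therefore low in all 3 siMENA libraries (log2 fold change against control -2.52 ± 0.038, limma adjusted p = 4.99e-10). Its gene total in siMENA11a lay slightly above control (0.12 ± 0.038, limma adjusted p = 0.0247), a call that ended in TPM as deposited (-0.01) and without control replicate 1 or 2 or siMENA11a replicate 2 or 3. A gene total does not measure exon 11a, so it does not check the siMENA11a label. RN7SL transcripts took 44.9% ± 0.487 of the TPM in siMENA11a, 40.1% ± 0.524 in siMENA and 40.2% ± 0.770 in control (SD, n = 3 each), and size factors ranged from 0.891 to 1.09. Libraries correlated at 0.978 to 0.985 within a group and at 0.951 to 0.971 between groups, and 12258 to 12520 genes reached 1 TPM in a library. Of 6 epithelial markers 4 reached 1 TPM in each group (summed scaled TPM 314 to 328 in siMENA11a, 310.3 to 329.6 in siMENA and 354 to 366 in control), while KRT19 and CDH1 were near 0. Leukocyte markers summed to 125 to 131 in siMENA11a, 40.9 to 49.2 in siMENA and 96.9 to 104 in control, nearly all of it CD68, a lysosomal protein, with CD3E at 0 in all 9 libraries and PTPRC at 0.0657 or less. Fibroblast markers summed to 7.77 to 8.16 in siMENA11a, 15.4 to 17.1 in siMENA and 8.76 to 9.35 in control, and endothelial markers to 1.18 or less, with TEK at 0. These marker sums moved between the groups, and their part in the results below was not tested.

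After the exon 11a siRNAs, the G2 and mitosis genes, which were chosen with earlier results of these data known, fell almost as a body. In siMENA11a against control, 47 of the 48 were called lower and 0 higher, where 27.7% of all tested genes were called lower, 27.9% higher and 55.6% either way (limma, adjusted p under 0.05). The exception was CDC25B, a phosphatase that activates CDK1. The median log2 fold change of the 48 was -0.56, against 0.01 for all tested genes, and single genes ranged from -1.19 (CDC20, the activator of the anaphase-promoting complex) to 0.05 (CDC25B). All 3 siMENA11a libraries lay below all 3 control libraries for the 47, an arrangement that 30.8% of tested genes showed, and above them for CDC25B, as for 32.1% of tested genes. The summed level of the 48 was 1945, 1909.5 and 1876 scaled TPM in siMENA11a, against 2772, 2753 and 2675 in control. The 2 groups did not overlap (1910.3 ± 34.5 in siMENA11a and 2733.5 ± 51.3 in control, SD, n = 3 each). Only CDC20 and ESPL1 had a mean level in siMENA11a under 50% of that in control, at 43.8% and 49.1%. In this bulk RNA, fewer cells in G2 and mitosis and less RNA of these genes per cell cannot be told apart.

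The count of 47 lower was the same in TPM as deposited, in TPM rescaled after leaving out small and structured RNAs, and after quantile normalisation. The median of all tested genes moved to -0.11 in TPM as deposited, and the members' median relative to it was -0.58, against -0.57 in the scaled values. CDC25B was called higher in the rescaled values and after quantile normalisation, and lay below 0 (-0.08) in TPM as deposited.

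With the pool against all isoforms, most of these genes fell by small amounts. In siMENA against control, 36 of the 48 were called lower, where 25.8% of tested genes were, and 1 was called higher, where 23.7% were and 49.5% were called either way (limma, adjusted p under 0.05). The median was -0.20, against 0.01 for all tested genes, and the range ran from -0.83 (ANLN, which builds the contractile ring) to 0.11 (KIF18A, a kinesin that damps chromosome movements). The 3 siMENA libraries lay below the 3 control libraries for 38 of the 48, as for 29.1% of tested genes, above them for 3, as for 28.5%, and overlapped them for 7. The summed level was 2255, 2283 and 2277 scaled TPM in siMENA, against the control values above, and these groups did not overlap either. The 11 genes not called were CCNB1, CCNB2, CDC25B, TTK, MAD2L1, UBE2C, CENPA, CENPE, KIF4A, KIF18A and HMMR. BUB1B, a spindle checkpoint gene, was the gene called higher. This call ended in 8 of the 9 fits that left out a library, holding only without siMENA replicate 2. The call was kept in all 3 other scalings. BUB1B had 0.17 in TPM as deposited, 0.21 in the rescaled values and 0.19 after quantile normalisation (limma adjusted p = 0.0179, 0.00107 and 0.0021).

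These siMENA counts depend on the scaling. They were 21 lower and 3 higher in TPM as deposited, 21 and 6 in the rescaled values, and 24 and 5 after quantile normalisation. All tested genes moved as well, with medians of 0.09, 0.13 and 0.03 in that order. In the rescaled values 2316 of all tested genes were called lower and 5215 higher, against 3478 and 3196 in the scaled values. Relative to the medians of all tested genes, the 48 genes had medians of -0.21, -0.21 and -0.13 in the same order, against -0.21 in the scaled values. Of the 36, 20 were called lower under all 4 scalings. The 16 whose call ended in at least 1 other scaling were FOXM1, AURKB, BUB3, CDC20, NDC80, SPC25, CENPF, KIF2C, KIF20B, KIF23, ECT2, RACGAP1, NUSAP1, DLGAP5, NCAPG and NCAPH. The siMENA falls given below for these 16 hold in the scaled values.

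**Figure D2:**
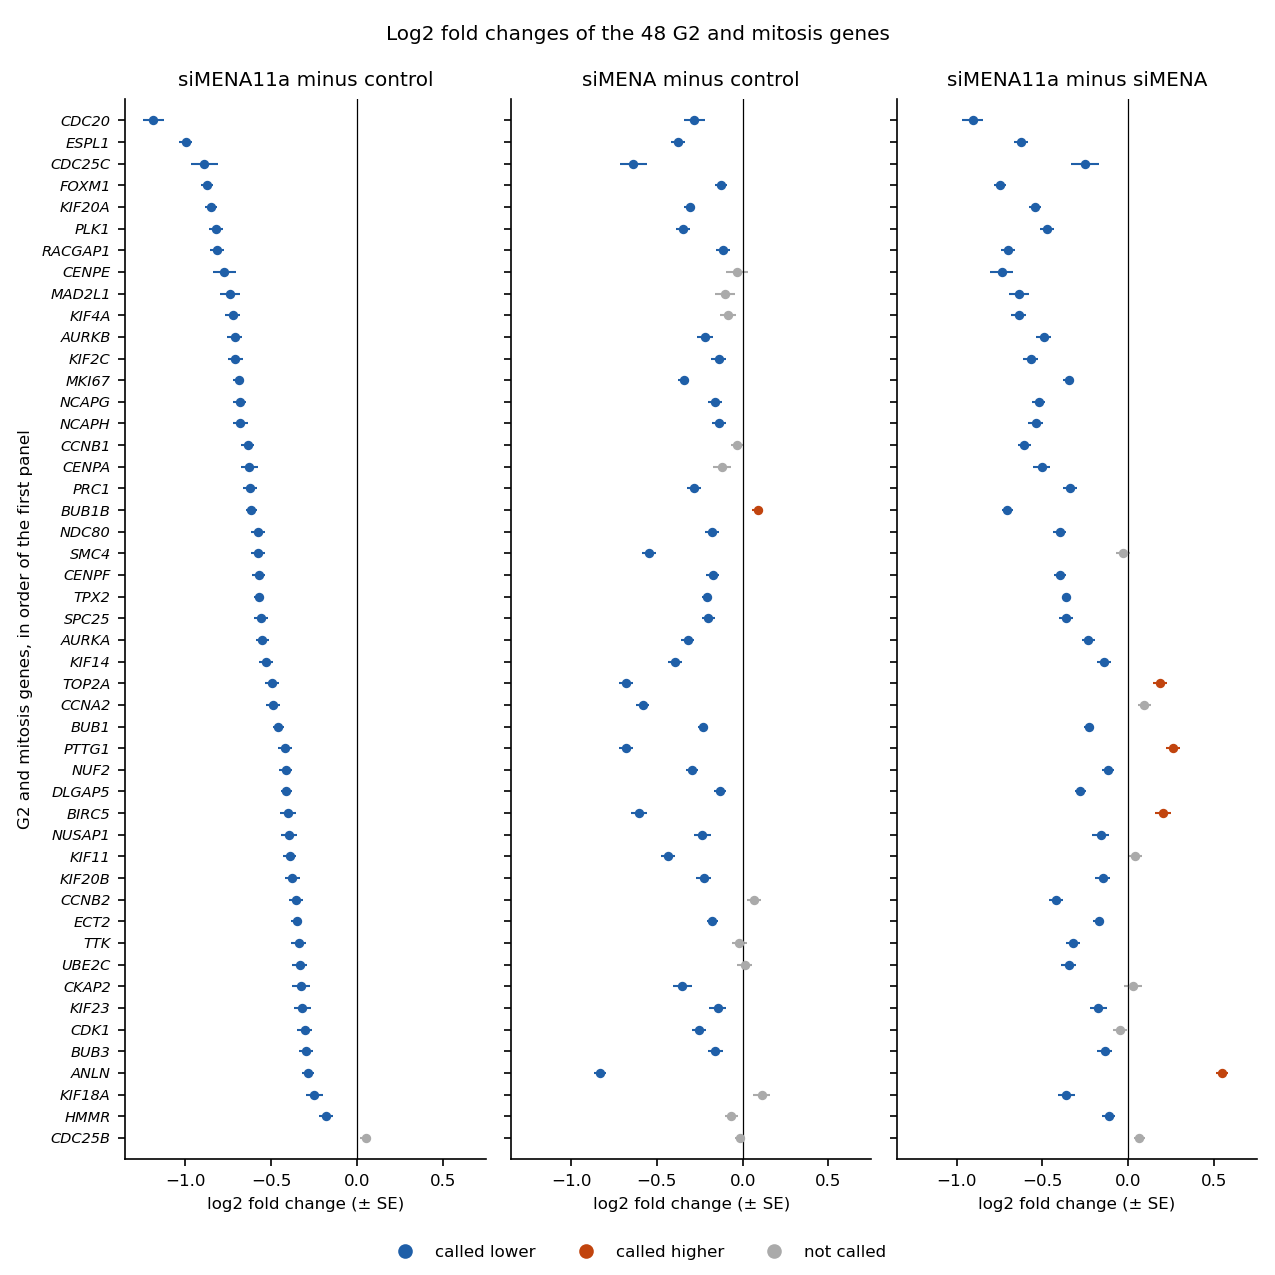
Log2 fold change of each of the 48 genes in siMENA11a minus control, siMENA minus control and siMENA11a minus siMENA, with bars of 1 SE from limma, in the order of the first comparison. Blue points were called lower, red points higher and grey points not called. In the first panel 47 points lie below 0, in the second 44 do, and ANLN, TOP2A, PTTG1 and BIRC5 are the red points of the third.

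The knockdowns were also set against each other directly. In siMENA11a against siMENA, 38 of the 48 were called lower, where 29.2% of tested genes were, and 4 were called higher, where 29.5% were and 58.7% were called either way (limma, adjusted p under 0.05). The median was -0.34, against 0.00 for all tested genes, and the range ran from -0.91 (CDC20) to 0.54 (ANLN). The 4 higher in siMENA11a were ANLN, TOP2A, PTTG1 and BIRC5. The 6 not called were CDK1, CCNA2, CDC25B, SMC4, KIF11 and CKAP2. Libraries of siMENA11a lay below those of siMENA for 38 genes (32.5% of tested genes), above for 6 (32.6%) and overlapped for 4. In TPM as deposited, where the median of all tested genes was -0.20, 43 were lower and 1, ANLN, was higher. Of all tested genes, 6321 were called lower and 2030 higher in TPM as deposited, against 3937 and 3983 in the scaled values. CDK1, CDC25B, SMC4, KIF11 and CKAP2 were then called lower, and TOP2A, PTTG1 and BIRC5 were not called. The 3 comparisons share libraries and are not independent of each other.

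**Figure D3:**
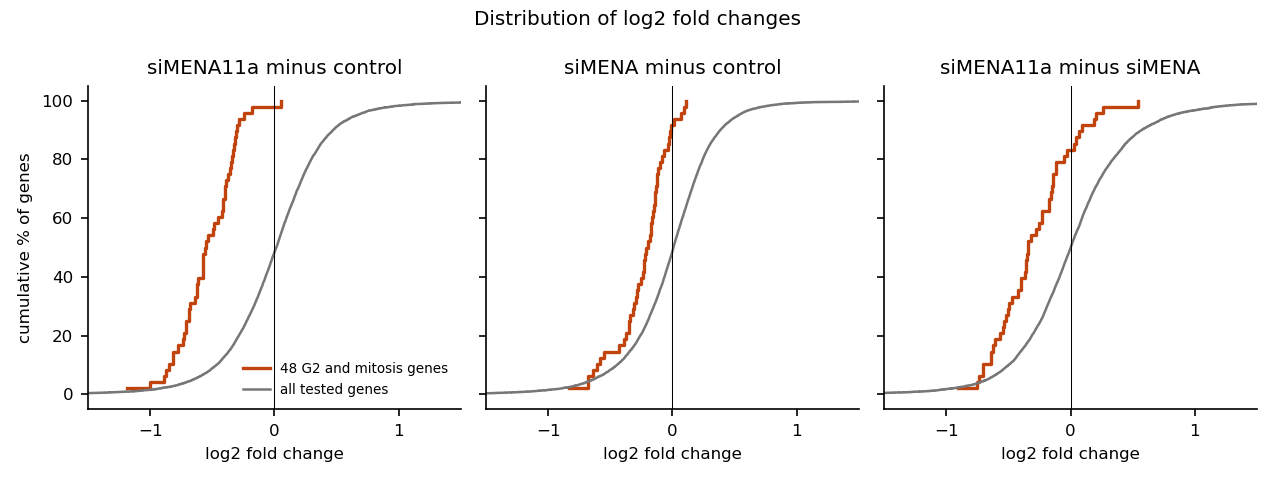
Cumulative percent of genes (y axis) with a log2 fold change up to the value on the x axis, for the 48 G2 and mitosis genes (red) and all 13494 tested genes (grey), in each of the 3 comparisons. The x axis is clipped at the far ends of the grey line, and the medians of the 48 are -0.56, -0.20 and -0.34 in panel order, beside 0.01, 0.01 and 0.00 for all tested genes.

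Levels of the 48 genes spanned a wide range. Mean levels ran between 5.93 scaled TPM (CDC25C) and 142 (TOP2A) in siMENA11a, between 7.13 (CDC25C) and 176 (UBE2C) in siMENA, and between 11.4 (CDC25C) and 201 (TOP2A) in control. The median gene had 31.8 in siMENA11a, 39.9 in siMENA and 47.0 in control. Replicates were close, with a median coefficient of variation over the 48 of 3.02% in siMENA11a, 2.79% in siMENA and 3.12% in control, against 5.32% in siMENA11a, 5.46% in siMENA and 5.57% in control over all tested genes.

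Among regulators, FOXM1, the transcription factor that drives many G2 genes, had 32.4, 34.7 and 32.5 scaled TPM in siMENA11a, 56.97, 56.7 and 54.8 in siMENA and 62.2, 62.01 and 59.7 in control. The siMENA11a libraries were far below both other groups, and the siMENA libraries lay just under control without overlap. FOXM1 fell by 0.88 ± 0.036 on the log2 scale in siMENA11a against control (limma adjusted p = 1.41e-07) and by 0.13 ± 0.036 in siMENA (limma adjusted p = 0.0165). The siMENA value for FOXM1 was -0.04 in TPM as deposited, -0.01 in the rescaled values and -0.02 after quantile normalisation, and was not called in any of these. MKI67, the Ki-67 protein that coats mitotic chromosomes, had 48.4, 47.7 and 49.6 scaled TPM in siMENA11a, 60.4, 62.00 and 63.4 in siMENA and 80.4, 78.7 and 76.9 in control. Its 3 groups formed separate steps, with siMENA11a lowest and siMENA in the middle. The fall against control was 0.69 ± 0.032 in siMENA11a and 0.34 ± 0.032 in siMENA (limma adjusted p = 2.57e-07 and 2.32e-05).

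The cyclins and CDK1 differed in how the knockdowns ordered. CDK1, the kinase that drives entry into mitosis, had 48.9, 49.9 and 48.7 scaled TPM in siMENA11a, 52.7, 52.7 and 47.5 in siMENA and 59.9, 61.8 and 60.9 in control. Both knockdowns lay below control and overlapped each other (siMENA11a against siMENA -0.05 ± 0.042, 95% interval -0.14 to 0.04, limma adjusted p = 0.336). CCNA2, cyclin A2, which acts in S phase and G2, had 35.9, 35.7 and 34.98 scaled TPM in siMENA11a, 33.97, 32.3 and 33.6 in siMENA and 50.8, 51.9 and 47.6 in control. It too was low in both knockdowns, at -0.49 in siMENA11a and -0.58 in siMENA against control (limma adjusted p = 5.96e-06 and 2.85e-06). The difference between the knockdowns was 0.09 ± 0.038 and was not called (limma adjusted p = 0.0633), and it turned to -0.12 in TPM as deposited, also not called.

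The B-type cyclins stood in another order. CCNB1, cyclin B1, the main partner of CDK1 in mitosis, had 58.7, 54.3 and 54.3 scaled TPM in siMENA11a, 83.4, 86.6 and 85.3 in siMENA and 88.97, 87.1 and 84.6 in control. The siMENA11a libraries stood apart, and siMENA overlapped control. CCNB1 fell by 0.64 ± 0.038 in siMENA11a against control (limma adjusted p = 1.17e-06), while the siMENA difference was -0.03 ± 0.038 with a 95% interval of -0.12 to 0.06 (limma adjusted p = 0.546). That difference turned to 0.09 in the rescaled values and to 0.12 after quantile normalisation, and was called higher in both. CCNB2, cyclin B2, had 43.9, 40.7 and 39.5 scaled TPM in siMENA11a, 56.2, 54.4 and 55.95 in siMENA and 54.1, 52.5 and 52.7 in control. The siMENA11a libraries lay below both other groups, at -0.36 from control (limma adjusted p = 5.89e-05). The siMENA libraries all lay a little above control, a difference of 0.06 ± 0.04 that was not called (95% interval -0.03 to 0.15, limma adjusted p = 0.21) but was called higher in all 3 other scalings.

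The CDC25 phosphatases, which remove the inhibitory phosphates of CDK1, split. CDC25C had 6.32, 6.36 and 5.11 scaled TPM in siMENA11a, 7.23, 7.31 and 6.85 in siMENA and 10.95, 12.1 and 11.1 in control, the lowest level of the 48. It fell by 0.89 ± 0.08 in siMENA11a and by 0.64 ± 0.08 in siMENA against control (limma adjusted p = 1.45e-05 and 0.000158), with no overlap. CDC25B had 77.8, 76.9 and 77.01 scaled TPM in siMENA11a, 72.2, 72.8 and 76.5 in siMENA and 73.4, 75.2 and 75.1 in control. Its 9 values lay within a narrow band, and the siMENA11a difference from control was 0.05 ± 0.03 (95% interval -0.02 to 0.12, limma adjusted p = 0.181). The siMENA difference from control was not called in the scaled values (limma adjusted p = 0.717). For siMENA, CDC25B was called higher in the rescaled values (0.10, limma adjusted p = 0.0165) and after quantile normalisation (0.14, limma adjusted p = 0.00381).

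The mitotic kinases all fell in siMENA11a, with a median of -0.55 over the 5. PLK1, which promotes mitotic entry, centrosome maturation and cytokinesis, had 36.7, 36.6 and 36.4 scaled TPM in siMENA11a, 50.8, 49.3 and 52.7 in siMENA and 62.4, 68.6 and 63.8 in control. The groups formed 3 separate steps, and PLK1 fell by 0.82 ± 0.04 in siMENA11a and by 0.35 ± 0.04 in siMENA against control (limma adjusted p = 3.73e-07 and 9.85e-05). AURKA, the centrosome and spindle kinase, had 72.2, 72.5 and 70.03 scaled TPM in siMENA11a, 81.98, 84.8 and 85.7 in siMENA and 106, 109.7 and 100.1 in control. AURKB, the kinase of the chromosomal passenger complex, had 38.96, 41.6 and 38.6 scaled TPM in siMENA11a, 59.7, 53.7 and 55.02 in siMENA and 65.2, 65.8 and 65.1 in control. Both genes showed the same 3 steps, with falls against control of 0.55 ± 0.038 and 0.71 ± 0.045 in siMENA11a (limma adjusted p = 2.67e-06 and 1.54e-06). In siMENA these falls were 0.32 ± 0.038 and 0.22 ± 0.045 (limma adjusted p = 0.000109 and 0.00284). BUB1, which phosphorylates histone H2A at centromeres, fell by 0.46 ± 0.03 and 0.23 ± 0.03 in siMENA11a and siMENA against control (limma adjusted p = 2.08e-06 and 0.000205). TTK, the kinase that starts the spindle checkpoint signal, had 16.4, 17.5 and 16.3 scaled TPM in siMENA11a, 20.8, 21.1 and 21.03 in siMENA and 21.3, 22.1 and 20.4 in control. It was called lower in siMENA11a (-0.34 against control, limma adjusted p = 0.000109), and the siMENA interval was -0.11 to 0.08 (limma adjusted p = 0.742).

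**Figure D4:**
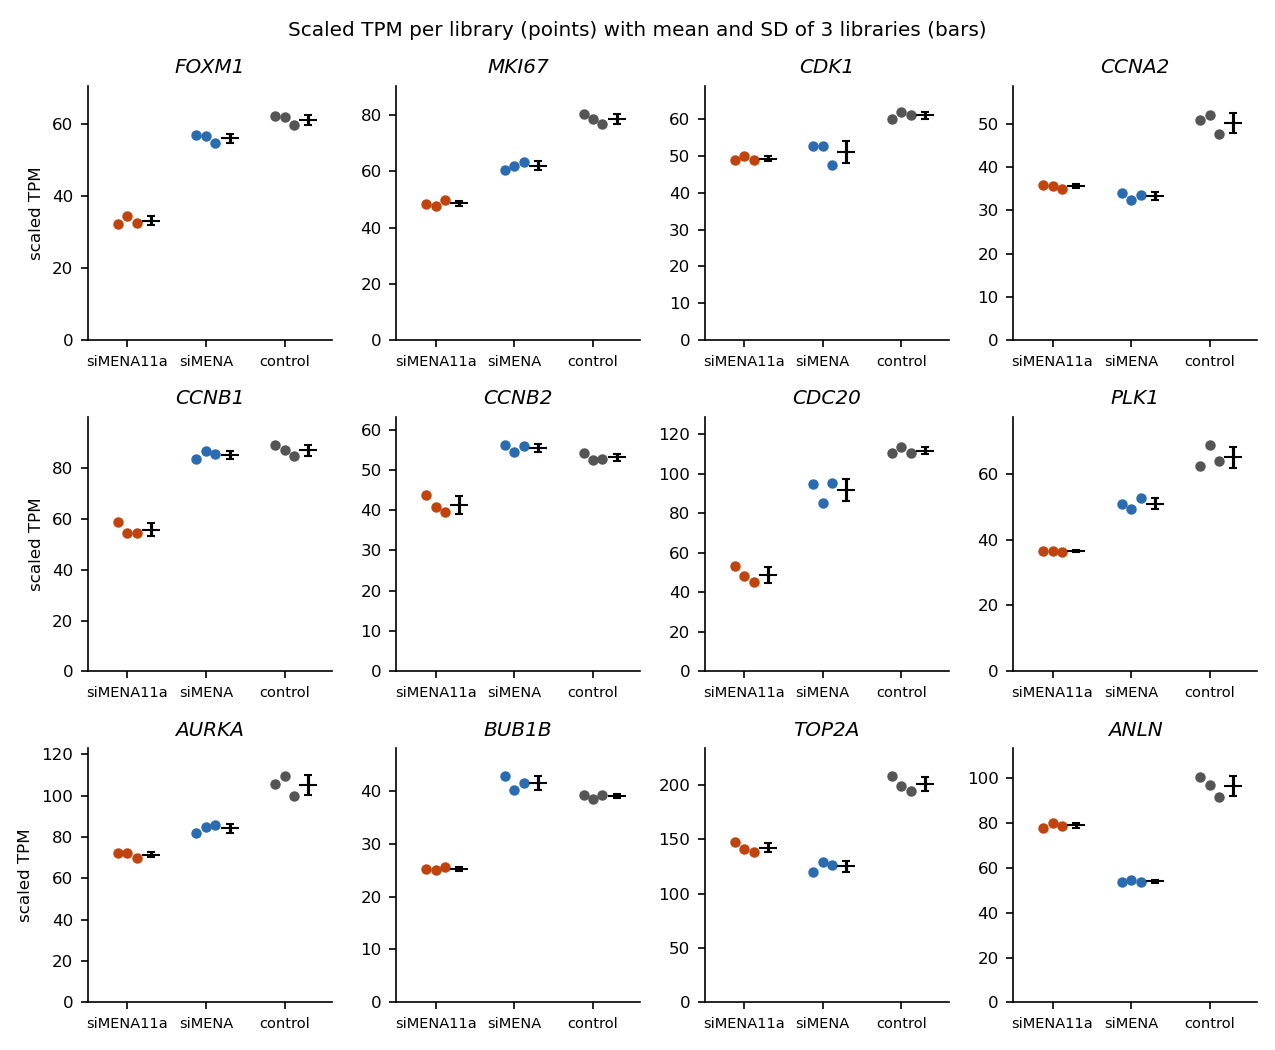
Scaled TPM of 12 of the 48 genes in each library (points), with the mean and SD of 3 libraries (bars beside the points), for siMENA11a, siMENA and control. FOXM1, CCNB1, CCNB2, CDC20 and BUB1B are lowest in siMENA11a, CDK1 and CCNA2 are below control in both knockdowns, and TOP2A and ANLN are lowest in siMENA.

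The spindle checkpoint proteins BUB1B, BUB3 and MAD2L1 form or build the complex that inhibits CDC20. BUB1B had 25.2, 24.9 and 25.6 scaled TPM in siMENA11a, 42.8, 40.1 and 41.5 in siMENA and 39.1, 38.5 and 39.2 in control. The siMENA11a libraries were the lowest of the 9 and the siMENA libraries the highest. The differences from control were -0.62 ± 0.032 in siMENA11a (limma adjusted p = 4.96e-07) and 0.09 ± 0.032 in siMENA (limma adjusted p = 0.0438). MAD2L1 had 28.02, 23.4 and 25.5 scaled TPM in siMENA11a, 39.8, 41.4 and 38.9 in siMENA and 43.6, 42.8 and 42.6 in control. It fell by 0.74 ± 0.057 in siMENA11a against control (limma adjusted p = 5.66e-06), and its siMENA libraries lay below control without a call (95% interval -0.23 to 0.03, limma adjusted p = 0.172). BUB3, which also serves outside mitosis, fell by 0.30 ± 0.043 in siMENA11a and 0.16 ± 0.043 in siMENA (limma adjusted p = 0.00032 and 0.0133).

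The genes of anaphase onset held both the largest fall and some of the smaller ones. CDC20 had 53.2, 48.1 and 45.3 scaled TPM in siMENA11a, 95.1, 85.4 and 95.4 in siMENA and 111, 114 and 111 in control. The siMENA11a libraries stood far below the others, siMENA lay between without overlap, and CDC20 fell by 1.19 ± 0.061 in siMENA11a against control (limma adjusted p = 4.42e-07), against 0.28 ± 0.061 in siMENA (limma adjusted p = 0.00393). The direct difference between the knockdowns was -0.91 ± 0.061 (limma adjusted p = 1.44e-06). ESPL1, separase, the protease that cuts cohesin, had 13.6, 13.01 and 13.2 scaled TPM in siMENA11a, 20.3, 20.1 and 21.9 in siMENA and 27.1, 27.2 and 26.9 in control. Its libraries also formed 3 separate steps, and the fall was 1.00 ± 0.04 in siMENA11a and 0.37 ± 0.04 in siMENA against control (limma adjusted p = 1.19e-07 and 5.58e-05). PTTG1, securin, which holds separase inactive, had 104, 106 and 101 scaled TPM in siMENA11a, 87.04, 85.5 and 86.1 in siMENA and 148, 135 and 133 in control. Here siMENA11a lay between the others, at -0.42 from control (limma adjusted p = 2.35e-05), and siMENA was lowest, at -0.68 (limma adjusted p = 1.59e-06). The difference between the knockdowns, 0.26 ± 0.041 (limma adjusted p = 0.000381), was 0.05 in TPM as deposited and not called. The near-identical copies PTTG2 and PTTG3P were at 0.137 scaled TPM or less in every library. UBE2C, the ubiquitin-conjugating enzyme of the anaphase-promoting complex, had 146, 135 and 133 scaled TPM in siMENA11a, 175, 179 and 174 in siMENA and 177, 181 and 165 in control. It was low in siMENA11a (-0.33, limma adjusted p = 0.00016) and siMENA overlapped control (95% interval -0.09 to 0.11, limma adjusted p = 0.832), though it was called higher in the rescaled values and after quantile normalisation.

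All 7 kinetochore and centromere genes fell in siMENA11a, with a median of -0.57. In siMENA 5 of the 7 were called lower (median -0.18), and NUF2 and BIRC5 were so under all 4 scalings. For this and the other roles, the shares of all tested genes called lower were 27.7% in siMENA11a and 25.8% in siMENA. CENPE, a kinesin-like motor that carries chromosomes to the metaphase plate, had 6.46, 7.27 and 7.8 scaled TPM in siMENA11a, 12.3, 12.7 and 11.8 in siMENA and 13.1, 12.5 and 12.2 in control. The siMENA11a libraries stood apart and siMENA overlapped control, and the fall in siMENA11a against control was 0.77 ± 0.066 (limma adjusted p = 1.02e-05). CENPA, the centromeric histone H3 variant, had 21.7, 22.2 and 22.6 scaled TPM in siMENA11a, 32.2, 30.96 and 32.1 in siMENA and 37.2, 34.7 and 31.9 in control. It fell by 0.63 ± 0.051 in siMENA11a (limma adjusted p = 8.01e-06), and siMENA overlapped control. In siMENA against control, CENPE had an interval of -0.18 to 0.11 (limma adjusted p = 0.702) and CENPA one of -0.24 to -0.01 (limma adjusted p = 0.0781). NDC80, NUF2 and SPC25, of the complex that grips microtubule ends, fell by 0.58 ± 0.04, 0.41 ± 0.037 and 0.56 ± 0.04 in siMENA11a and by 0.18 ± 0.04, 0.30 ± 0.037 and 0.20 ± 0.04 in siMENA. CENPF, a large protein of the outer kinetochore, fell by 0.57 ± 0.037 and 0.17 ± 0.037 in siMENA11a and siMENA. BIRC5, survivin, a member of the chromosomal passenger complex, had 36.4, 35.7 and 34.7 scaled TPM in siMENA11a, 28.96, 32.2 and 31.4 in siMENA and 47.4, 48.96 and 45.3 in control. It was lowest in siMENA, with falls against control of 0.40 ± 0.046 in siMENA11a and 0.61 ± 0.046 in siMENA (limma adjusted p = 7.39e-05 and 7.28e-06). The difference between the knockdowns, 0.20 ± 0.046 (limma adjusted p = 0.00394), was -0.01 in TPM as deposited and not called.

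The 8 kinesins, motors that move along microtubules, all fell in siMENA11a (median -0.46), and 6 of the 8 were called lower in siMENA (median -0.19), of which KIF11, KIF14 and KIF20A were called under all 4 scalings. KIF20A, a motor of the central spindle, had 28.4, 26.8 and 26.4 scaled TPM in siMENA11a, 39.6, 40.5 and 39.2 in siMENA and 48.7, 50.04 and 49.6 in control. Its 3 groups were separate, and it fell by 0.85 ± 0.035 and 0.31 ± 0.035 in siMENA11a and siMENA against control (limma adjusted p = 1.29e-07 and 7.56e-05). KIF4A, a chromosome-bound motor, had 11.3, 10.5 and 10.7 scaled TPM in siMENA11a, 17.5, 16.9 and 17.00 in siMENA and 18.1, 19.03 and 17.5 in control. It fell in siMENA11a by 0.72 ± 0.044 (limma adjusted p = 1.35e-06) and was not called in siMENA (95% interval -0.19 to 0.01, limma adjusted p = 0.14). The near-identical copy KIF4B stayed at 0.0797 scaled TPM or less. KIF18A had 9.61, 9.87 and 9.33 scaled TPM in siMENA11a, 12.7, 12.8 and 11.9 in siMENA and 11.9, 10.9 and 11.8 in control. The siMENA11a libraries lay below control, at -0.25 (limma adjusted p = 0.0021). The siMENA libraries lay slightly above it without a call (95% interval 0.00 to 0.22, limma adjusted p = 0.088), and were called higher in TPM as deposited and in the rescaled values. KIF11, the motor that pushes spindle poles apart, had 26.3, 27.7 and 27.6 scaled TPM in siMENA11a, 25.1, 27.6 and 26.6 in siMENA and 36.1, 35.6 and 35.8 in control. It was low in both knockdowns, at -0.39 for siMENA11a and -0.43 for siMENA against control, and these overlapped (siMENA11a against siMENA, 95% interval -0.05 to 0.13, limma adjusted p = 0.412). The remaining kinesins were KIF2C, which takes microtubules apart (-0.71 in siMENA11a and -0.14 in siMENA), KIF14 (-0.53 in siMENA11a and -0.39 in siMENA), KIF20B (-0.38 in siMENA11a and -0.23 in siMENA) and KIF23 of the centralspindlin complex. KIF23 was called lower at -0.32 in siMENA11a and -0.15 in siMENA, where its libraries overlapped control.

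All 4 cytokinesis genes were called lower in both knockdowns, though in siMENA only ANLN and PRC1 were so under all 4 scalings. ANLN went against the others in order. ANLN had 77.99, 80.1 and 78.97 scaled TPM in siMENA11a, 53.6, 54.7 and 53.7 in siMENA and 101, 97.2 and 91.9 in control. The siMENA11a libraries lay at -0.29 ± 0.035 from control (limma adjusted p = 0.000108), and the siMENA libraries were far below the rest, at -0.83 ± 0.035 (limma adjusted p = 2.57e-07). RACGAP1, the partner of KIF23 in centralspindlin, had 26.7, 26.1 and 25.4 scaled TPM in siMENA11a, 43.95, 41.3 and 42.9 in siMENA and 46.3, 47.9 and 44.5 in control. Here siMENA11a stood apart at -0.82 from control, against -0.11 for siMENA (limma adjusted p = 3.12e-07 and 0.0346), a siMENA value that was -0.03, 0.00 and -0.02 in the 3 other scalings and not called there. PRC1, which bundles central spindle microtubules, fell by 0.62 ± 0.04 in siMENA11a and 0.28 ± 0.04 in siMENA. ECT2, the exchange factor that switches on RhoA at the cell equator, fell by 0.35 ± 0.032 in siMENA11a and 0.18 ± 0.032 in siMENA.

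All 5 spindle assembly genes fell in siMENA11a (median -0.40), and 4 of the 5 were called lower in siMENA (median -0.21), of which TPX2 and CKAP2 were called under all 4 scalings. TPX2, which activates AURKA at the spindle, fell by 0.57 ± 0.026 in siMENA11a and 0.21 ± 0.026 in siMENA against control (limma adjusted p = 2.35e-07 and 0.000143). HMMR, a microtubule-associated hyaluronan receptor, had 20.5, 19.5 and 18.9 scaled TPM in siMENA11a, 20.6, 21.4 and 21.8 in siMENA and 22.3, 22.3 and 22.2 in control. It showed the smallest fall of the 47, -0.18 in siMENA11a (limma adjusted p = 0.00333), and its siMENA interval was -0.15 to 0.02 (limma adjusted p = 0.195). NUSAP1 and DLGAP5, which stabilise spindle microtubules, fell by 0.40 ± 0.049 and 0.41 ± 0.034 in siMENA11a and by 0.24 ± 0.049 and 0.13 ± 0.034 in siMENA. CKAP2, the gene with none of the searched promoter words, had 19.03, 17.4 and 18.7 scaled TPM in siMENA11a, 17.97, 17.1 and 19.00 in siMENA and 23.05, 24.2 and 22.1 in control. It was low in both knockdowns, -0.32 for siMENA11a and -0.35 for siMENA, which overlapped each other.

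All 4 chromosome structure genes were called lower in both knockdowns, though in siMENA only TOP2A and SMC4 were so under all 4 scalings. TOP2A, the topoisomerase that untangles sister DNAs, had 147, 141 and 138 scaled TPM in siMENA11a, 119, 129 and 126 in siMENA and 208, 199 and 195 in control. Both knockdowns were clear of control, and siMENA was the lower of them, with falls of 0.49 ± 0.041 in siMENA11a and 0.68 ± 0.041 in siMENA (limma adjusted p = 8.14e-06 and 1.57e-06). The difference between the knockdowns, 0.19 ± 0.041 (limma adjusted p = 0.00304), was -0.03 in TPM as deposited. SMC4, a condensin ATPase, had 31.9, 29.9 and 31.8 scaled TPM in siMENA11a, 31.2, 32.8 and 31.4 in siMENA and 48.4, 47.00 and 44.9 in control. The knockdowns overlapped each other below control (siMENA11a against siMENA, 95% interval -0.12 to 0.06, limma adjusted p = 0.583). NCAPG and NCAPH, condensin I subunits, fell by 0.68 ± 0.039 and 0.68 ± 0.042 in siMENA11a and by 0.16 ± 0.039 and 0.14 ± 0.042 in siMENA.

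The remaining pathway was read from 6 lists with 142 other genes, all tested, which were also chosen with earlier results known. In siMENA11a against control 105 were called lower and 12 higher, where 27.7% and 27.9% of all tested genes were, with a median of -0.36. In siMENA against control 80 were lower and 13 higher, where 25.8% and 23.7% were, with a median of -0.19. In siMENA11a against siMENA 76 were lower and 21 higher, where 29.2% and 29.5% were, with a median of -0.17. In siMENA11a against control, 28 of 30 spindle, centrosome and cytokinesis genes, 33 of 37 kinetochore and centromere genes and 12 of 17 condensin and cohesin genes were called lower. The anaphase-promoting complex and its partners had 11 of 20 lower and 3 higher, the G2 entry genes 9 of 16 lower and 2 higher, and the DREAM, MuvB and E2F genes 12 of 22 lower and 5 higher. These lists were not tested against each other.

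Upstream regulators of the members moved unevenly. MYBL2, the B-MYB factor that joins MuvB, had 60.5, 61.4 and 61.4 scaled TPM in siMENA11a, 56.7, 61.1 and 62.9 in siMENA and 108, 104 and 105 in control. It was low in both knockdowns, -0.78 for siMENA11a and -0.81 for siMENA against control, and these differed by 0.02 ± 0.04 (95% interval -0.07 to 0.11, limma adjusted p = 0.658). NFYA, a subunit of the factor that binds CCAAT boxes, had 4.72, 4.49 and 4.6 scaled TPM in siMENA11a, 9.32, 9.95 and 8.7 in siMENA and 9.93, 9.81 and 9.59 in control. It was called lower in siMENA11a, at -1.01 from control (limma adjusted p = 6.04e-07), against -0.07 in siMENA (limma adjusted p = 0.34). The other subunits and E2F5 were named after their values were seen. NFYB was called higher in both knockdowns, by 0.46 in siMENA11a and 0.31 in siMENA (limma adjusted p = 0.000506 and 0.00586), and NFYC was called lower at -0.16 in siMENA11a and had -0.10 in siMENA (limma adjusted p = 0.0432 and 0.21). E2F5, an E2F of the repressing kind, was called higher by 0.21 in siMENA11a and 1.26 in siMENA (limma adjusted p = 0.0145 and 4.65e-07). E2F1, which drives S phase genes, changed by -0.58 in siMENA11a (limma adjusted p = 0.000116), and had -0.16 in siMENA (limma adjusted p = 0.0873). LIN9, a MuvB subunit, changed by -0.21 in siMENA11a (limma adjusted p = 0.0364). TFDP1, the E2F partner, fell by 0.65 ± 0.047, and RBL1, the pocket protein p107, by 0.66 ± 0.052, both in siMENA11a (limma adjusted p = 3.37e-06 and 5.92e-06). WEE1, the kinase that inhibits CDK1, rose in both knockdowns, by 0.29 in siMENA11a and 0.45 in siMENA against control (limma adjusted p = 0.000175 and 1.48e-05). CKS2, a small CDK1-binding protein, fell by 0.54 ± 0.091 in siMENA11a and 0.33 ± 0.091 in siMENA (limma adjusted p = 0.000734 and 0.0132).

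Further genes of these lists, named mostly by their limma adjusted p in siMENA11a against control, were called lower there. Of those given here, all but CDC27 were also called lower in siMENA. CDCA3, which promotes degradation of WEE1, had 23.8, 24.2 and 21.4 scaled TPM in siMENA11a, 34.1, 38.8 and 37.04 in siMENA and 61.3, 60.05 and 58.8 in control. Its groups formed 3 steps, -1.36 and -0.71 from control in siMENA11a and siMENA (limma adjusted p = 1.52e-07 and 9.99e-06). RAD21, the cohesin subunit that separase cuts, had 33.5, 33.9 and 32.1 scaled TPM in siMENA11a, 49.6, 54.4 and 53.1 in siMENA and 75.3, 74.98 and 77.1 in control. It fell by 1.18 ± 0.039 and 0.53 ± 0.039 in siMENA11a and siMENA against control (limma adjusted p = 6.06e-08 and 5.87e-06). CDC27, a core subunit of the anaphase-promoting complex, fell in siMENA11a (-0.83, limma adjusted p = 2.35e-07) and had -0.04 in siMENA (limma adjusted p = 0.449). ASPM, a spindle pole protein, fell by 0.46 ± 0.035 in siMENA11a and 0.21 ± 0.035 in siMENA (limma adjusted p = 4.66e-06 and 0.000958).

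**Figure D5:**
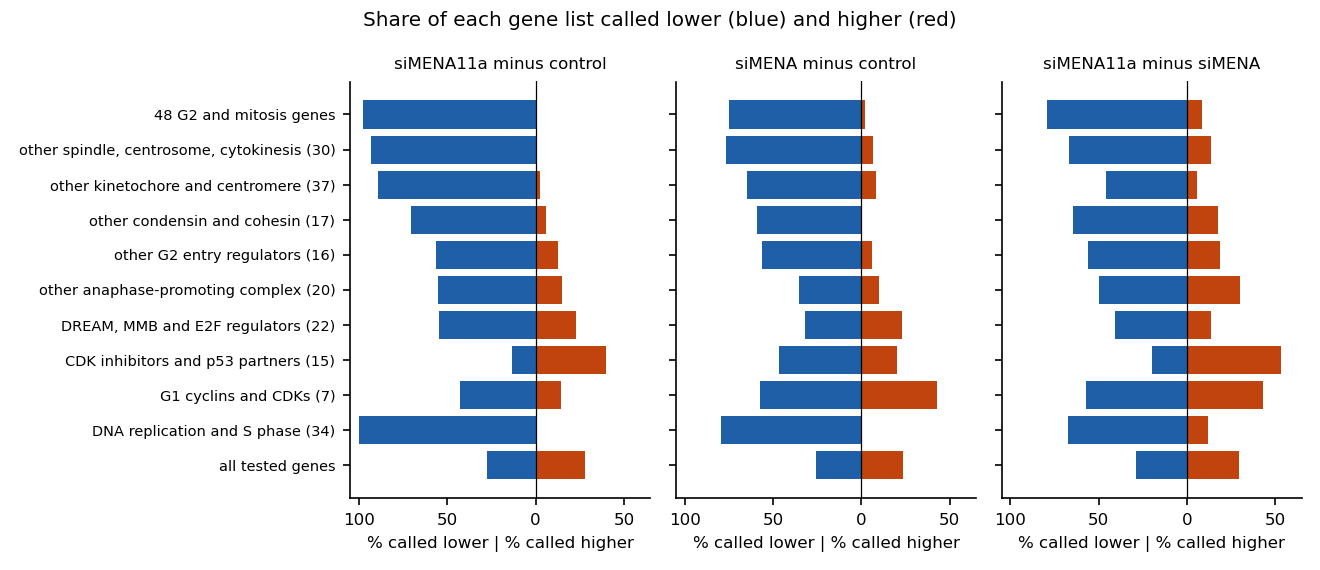
Percent of the tested genes of each list called lower (blue, to the left) and called higher (red, to the right) in the 3 comparisons, with list sizes in parentheses and all tested genes in the last bar. The 48 members have 97.9% called lower in siMENA11a and 75% in siMENA, and the CDK inhibitors and p53 partners have 13.3% and 46.7%.

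Genes of the neighbouring phases were counted for comparison. All 34 DNA replication and S phase genes were called lower in siMENA11a against control (median -0.54), and 27 of the 34 in siMENA against control (median -0.28). In the scaled values, the direction of the members was therefore shared by the S phase list. The list counts of this paragraph were not repeated in the other scalings. The G1 list holds cyclins, their kinases and MYC. Of its 7 tested genes, 3 were lower and 1 higher in siMENA11a, where 27.7% and 27.9% of all tested genes were. In siMENA 4 of them were lower and 3 higher, where 25.8% and 23.7% were. CDK4, which drives G1, fell by 0.65 ± 0.039 in siMENA11a (limma adjusted p = 1.18e-06). MYC, a growth-promoting transcription factor and the gene called higher there, rose by 0.35 (limma adjusted p = 2.75e-05). Log2 fold changes on this list ran from -0.65 to 0.35 in siMENA11a and from -1.37 to 0.71 in siMENA, each against control. Of 15 CDK inhibitors and p53 partners, 2 were lower and 6 higher in siMENA11a, where 27.7% and 27.9% of all tested genes were, and 7 were lower and 3 higher in siMENA, where 25.8% and 23.7% were. CDKN1A, the inhibitor p21, through which p53 represses many of the members, had 55.2, 53.4 and 51.5 scaled TPM in siMENA11a, 35.7, 35.3 and 40.3 in siMENA and 45.7, 46.6 and 43.5 in control. In the scaled values it was highest in siMENA11a and lowest in siMENA, at 0.24 ± 0.053 and -0.29 ± 0.053 from control (limma adjusted p = 0.00424 and 0.00172). CDKN1A was not followed in the other scalings, so this order may depend on the scaling.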

How the data were processed

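RNA of H2030 cells was measured in 9 libraries, 3 in each of 3 siRNA groups. Per the labels' protocols, 500 ng of DNase-treated, ribosome-depleted total RNA was made into stranded libraries and sequenced in pairs (2x75). The deposited table holds TPM per gene. Its name points to RSEM, and kallisto and GRCh37 are listed without a role, per the submitters' processing notes. The aligner and strand setting were not given in the sources used here. Since TPM loses depth, sequencing depth is unknown and no counting error is given. TPM was divided by median-of-ratios size factors over 12341 genes, and log2(value + 0.5) was fitted with limma 3.58.1 (R 4.3.3, trended eBayes), as 3 group means over 9 libraries. Genes with a mean of at least 0.5 were tested and p-values adjusted over all of them (Benjamini-Hochberg, called under 0.05). Fold changes on that scale understate changes of low genes. Errors are SE, or SD where stated. The fit was tested on simulated data. Alternatives covered scaling, pseudocount, filter, variance model, groups fitted, replicate number and each library left out. Members and lists were chosen with earlier results of these data known. Genes named with values are 12 marker genes, the 4 largest and 4 smallest changes and exceptions in each comparison, and up to 4 genes of each other list, and some further members are given in brief. Of the lists, 4 symbols were matched by older names. Promoters came from RefSeq (GRCh38.p14).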

Additional observations from a re-analysis of the deposited data

How the results depend on the processing

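The count of 47 members lower in siMENA11a against control was unchanged in every alternative run, and their median stayed below 0 in all 3 comparisons. The scaling moved other counts. In TPM as deposited, siMENA11a against control had 1965 of all tested genes and 5 other pathway genes higher, and the ENAH value was -0.014. In siMENA against control, 21 members were lower and 3 higher, with 2300 of all tested genes lower. In siMENA11a against siMENA, 1 member and 6 other pathway genes were higher, with 6321 of all tested genes lower and 2030 higher, and BIRC5 (-0.011), TOP2A (-0.030), CDC25B (-0.15), KIF11 (-0.17), CKAP2 (-0.19) and CCNA2 (-0.12) turned below 0. In TPM rescaled after leaving out small and structured RNAs, 1 member and 22 other pathway genes were higher in siMENA11a against control. In siMENA against control, 21 members were then lower and 6 higher, 2316 of all tested genes lower and 5215 higher, 28 other pathway genes higher, and CCNB1 was 0.089. Quantile normalisation gave 1 member higher in siMENA11a and 5 higher in siMENA against control, with CCNB1 at 0.12. With robust eBayes, with the replicate block and with only the 2 groups compared, 0 members were called higher in siMENA against control. The cause of these shifts was not tested. Leaving out each library in turn gave 0 to 1 members higher and 31 to 36 lower in siMENA against control, 32 to 38 lower and 4 to 5 higher in siMENA11a against siMENA, and an ENAH value of 0.10 to 0.13 in siMENA11a against control, with limma adjusted p of 0.0133 to 0.0772. That call ended without control replicate 1, control replicate 2, siMENA11a replicate 2 or siMENA11a replicate 3. Libraries with the same replicate number did not deviate together (r of -0.0967 to 0.105 over 9 pairs, against -0.126 to 0.129 over 18 others), and 1 of 9 libraries correlated best with its own number in both other groups. The replicate block gave 47 members lower in siMENA11a against control, 36 lower in siMENA against control, and 37 lower and 4 higher in siMENA11a against siMENA. Depth is unknown in TPM, so differences of low genes have no counting error.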
